A study of Mus musculus with 8 samples.

Results

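The genes of activator protein 1 (AP-1) examined here were Jun, Junb, Jund, Fos, Fosb, Fosl1, Fosl2, Atf3, Batf and Maff, 10 of the 21911 protein-coding gene symbols of the mouse (mm10, GENCODE). They were chosen by name, with earlier results of these data known. Each locus was the gene body with 20 kb on either side, and the start site ±1 kb was taken as the promoter. The assay was bulk ATAC-Seq, which finds open chromatin by where the transposase Tn5 can insert adapters. Hepatocytes of C57BL/6 mice, 10 to 12 weeks old and fed a normal diet, were isolated by collagenase perfusion from undamaged liver (0 h) and 48, 72 and 96 hours after partial hepatectomy (PHx). Each of the 4 groups had 2 libraries, 8 in all, and the labels gave no other allele, agent or diet. The study's methods describe hepatocytes from several mice at each time, and biological replicates from separate preparations at 0 h and 48 h. The labels did not tie single libraries to animals. The p-values measured the spread between libraries, pooled over the 4 groups and mostly borrowed from the trend over all sites tested.

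AP-1 is a dimer of basic leucine zipper (bZIP) proteins that binds the site TGACTCA. Jun proteins pair with each other or with Fos proteins, Fos proteins need a Jun partner, Atf3 and Batf pair with Jun proteins, and Maff, a small Maf protein without an activation domain, pairs with other bZIP proteins. Many of these genes are immediate early genes, which are induced within minutes to hours of growth factor or stress signals, and Jun is known to be needed for normal liver regeneration.

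The deposited files were peak lists without read counts, so sequencing depth was unknown. The value compared was the rank of the strongest distinct interval at a site within its list, ordered by −log10 p, where rank 1 was the strongest. Lists held 105206 to 154577 distinct intervals. The −log10 p at rank 50000 ranged from 8.05 to 15.23, and both 48 h lists (8.05 and 8.62) lay below both 0 h lists (15.23 and 9.96). A site without an interval was absent from that list, which at unknown depth did not show that it was closed. Below, 8 values given in a row follow the order 0 h replicates 1 and 2, 48 h replicates 1 and 2, 72 h replicates 1 and 2, and 96 h replicates 1 and 2.

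Start site sequences of 3 members are shown first. Jun and Maff are shown because their promoters held the variant of the cAMP response element (CRE) or the element itself, and Fos because it is the classic serum-induced gene of the family. RefSeq promoters (GRCm38.p6) were searched over the 250 bp upstream of the start, on both strands, for AP-1 (TGACTCA), CRE (TGACGTCA), variant CRE (TGACATCA), STAT (TTCNNNGAA), the GC box (GGGCGG) and the CArG box. Capitals mark every match, and adjoining matches run together.
Jun, chr4:95052223-95052472, minus strand: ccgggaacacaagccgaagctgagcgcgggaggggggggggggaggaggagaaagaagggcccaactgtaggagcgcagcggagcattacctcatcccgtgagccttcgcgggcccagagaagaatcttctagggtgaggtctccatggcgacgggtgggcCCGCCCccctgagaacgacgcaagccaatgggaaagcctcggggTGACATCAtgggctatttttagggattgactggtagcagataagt
Fos, chr12:85473640-85473889, plus strand: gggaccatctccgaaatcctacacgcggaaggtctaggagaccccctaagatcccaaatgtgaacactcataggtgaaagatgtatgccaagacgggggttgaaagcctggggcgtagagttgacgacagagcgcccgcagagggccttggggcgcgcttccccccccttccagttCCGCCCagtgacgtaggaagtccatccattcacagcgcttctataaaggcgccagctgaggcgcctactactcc
Maff, middle start site, chr15:79347270-79347519, plus strand: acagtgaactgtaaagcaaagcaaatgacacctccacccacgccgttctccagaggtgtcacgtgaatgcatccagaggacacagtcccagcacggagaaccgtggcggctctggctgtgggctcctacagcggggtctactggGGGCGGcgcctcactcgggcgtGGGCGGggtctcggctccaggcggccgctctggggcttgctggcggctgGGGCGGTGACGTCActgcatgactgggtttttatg
The variant CRE of Jun began 45 bp upstream of the start, and the CRE of Maff 29 bp upstream. The printed 250 bp of Fos held no CArG box. Further upstream, the window round a Fos promoter summit at −375 bp held 1. Among 32851 RefSeq promoters, 2.93% held the variant CRE and 1.55% the CRE, and 4.46% held the AP-1 site, which was in none of the RefSeq promoters of members. The GC box stood in 32.7% of promoters. RefSeq promoters were matched for 9 of the 10 members, all but Fosl1. The RefSeq start of Jund (chr8, position 70697739) lay outside the promoter window of its GENCODE start (position 70698949), and no consensus region covered it.

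Ordered by −log10 p, Fosl2 had the strongest promoter of the family (the plot of promoter ranks by gene and library). Its strongest interval ranked 12193, 8293, 5002, 6998, 4161, 10204, 3059 and 7311, and its median rank was ahead of that of 79.2% of all protein-coding promoters. This interval had its summit at −678 to −650 bp from the GENCODE start (chr5:32134978-32136183, intergenic by the annotation). A separate and weaker interval covered the RefSeq start of Fosl2 (chr5:32136326-32136880), at ranks 43096, 40722, 60122, 45833, 60765, 134534, 59069 and 38930. Fosl2, a Fos relative without a strong activation domain, was the only member whose promoter ranked at 12193 or better in every list. Ordered by fold enrichment, its promoter ranked lower, at 43707, 27033, 21476, 28314, 23078, 36475, 24816 and 22985. It was still the first of the family within each list, but this range overlapped that of Maff (30302 to 77483). The next by median rank on −log10 p was Maff, ahead of 51.2% of promoters, and the 6 other members with a median rank were ahead of 35.6% to 46.9%.

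**Figure D1:**
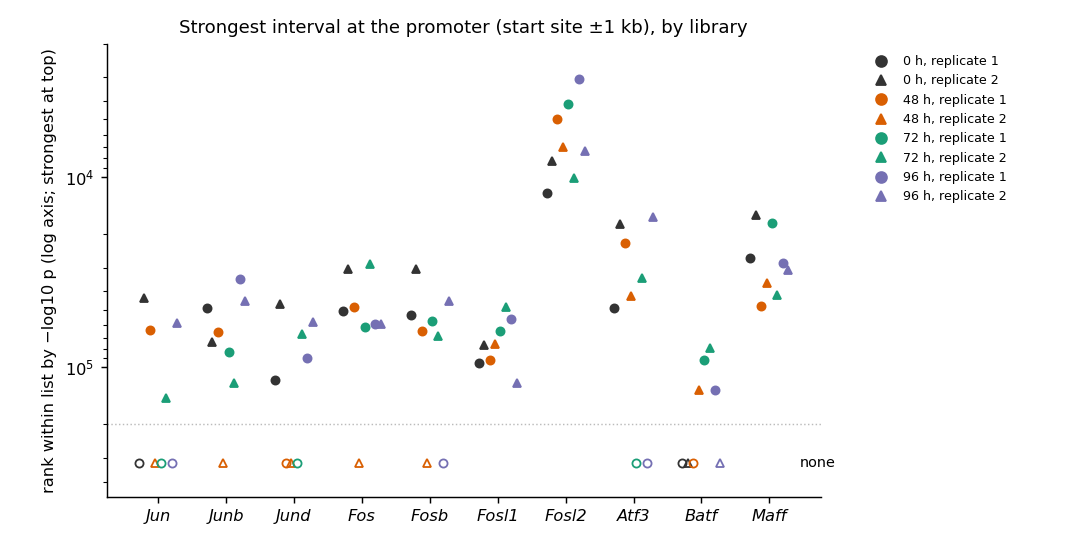
Rank of the strongest interval within 1 kb of a start site of each AP-1 gene, on a log axis with the strongest at the top; each point is 1 library, and open symbols below the dotted line are libraries without an interval. Fosl2 lies between ranks 3059 and 12193 in all 8 libraries, while Jun and Batf are absent from 4 of the 8 lists.

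Only Fosl1, Fosl2 and Maff had a promoter interval in all 8 lists, a state shared by 60.2% of all protein-coding promoters (13200 of 21911). Junb and Fos were found in 7 lists, Fosb and Atf3 in 6, Jund in 5, and Jun and Batf in 4.
The promoter of Jun, a strong activator of the family, was absent at 0 h in replicate 1 and ranked 43535 in replicate 2. It ranked 63454 in replicate 1 at 48 h, 145227 in replicate 2 at 72 h and 58912 in replicate 2 at 96 h, and was absent from the other 3 lists. In the 0 h, 48 h and 72 h lists these intervals only reached into the promoter window, with summits 1493, 1525 and 1042 bp downstream of the start.
Junb, which often restrains Jun, ranked 49032, 73777, 65596, absent, 83383, 120593, 34380 and 44719. Both 72 h values were behind and both 96 h values ahead of the 0 h pair.
Jund, the member that is expressed most steadily in resting cells, ranked 117437, 46629, absent, absent, absent, 67001, 89150 and 57975, so that both 48 h libraries lacked it. Fos ranked 50608, 30511, 48094, absent, 61617, 28637, 59088 and 59338. Fos was thus in every list but that of 48 h replicate 2, from which Jun, Junb, Jund and Fosb were also absent.

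Among the other Fos genes, Fosb ranked 53173, 30634, 64485, absent, 57218, 68361, absent and 44669, with the 48 h and 72 h libraries behind both 0 h libraries. Fosl1 (Fra-1), a member induced late in the response to growth factors, ranked 95391, 76838, 91860, 75964, 64661, 48298, 56154 and 121760. Both 72 h libraries were ahead of the 0 h pair, while those of 48 h and 96 h overlapped it.
Atf3, a stress-induced repressor, has a pair of annotated start sites. No list held an interval at the upstream start (chr1, position 191218039), and at the downstream start (position 191183340) the ranks were 48659, 17805, 22170, 42403, absent, 34083, absent and 16277.
Batf, known from T and B cells, was absent from both 0 h lists and from 48 h replicate 1 and 96 h replicate 2. It ranked 131682 in 48 h replicate 2, 91219 and 79013 in the 72 h pair and 132077 in 96 h replicate 1. The −log10 p of these 4 intervals was between 2.12 and 6.76, and none was among the strongest 50000 of its list.
Maff ranked 26859, 15856, 47955, 36185, 17587, 41555, 28304 and 31004. Its summits fell 317 to 363 bp downstream of the third annotated start, but 78 bp upstream of it in 48 h replicate 1.

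The presence of the members' promoters was set beside their base composition. GC content was taken over the 500 bp round the start site, since GC-rich promoters were more often open across the genome. Between 65% and 75% GC, 89.6% of 4503 promoters had an interval in all lists. Of the 3 members in that bin, Fosl2 (69.2% GC) had one, while Junb (67.8%) and Jund (74%) did not. Between 55% and 65% GC the share was 76% of 7129 promoters. There, Fosl1 (56.6%) had one, and Jun (60%), Fos (60.8%) and Fosb (56.6%) did not. Between 45% and 55% GC the share was 41.4% of 5957, with Maff (48.6%) found in all lists and Atf3 (53%) and Batf (52.6%) not. No test was made, since the comparison was chosen after the values were seen.

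Jun, Junb, Jund and Fos each had a region within the gene or just beyond its end that ranked ahead of the promoter in every list (the maps of the loci by distance from the start site). These genes are short, between 1668 and 4235 bp from end to end, and the regions were broad.
At Jun, a region at chr4:95047863-95051244 had its strongest summit 396 bp beyond the gene end, 3584 bp from the start, in sequence annotated as intergenic. It ranked 766, 1220, 493, 82, 347, 246, 169 and 2905, so that its worst rank in any list was 2905. It was the only consensus region of the Jun locus, and its inner edge reached the promoter window. The intervals were 1517 to 3086 bp wide, against median widths of 257 to 315 bp over all intervals of a list.
At Jund, a region at chr8:70700653-70703693 had its summit 1155 bp beyond the gene end and ranked 4422, 3729, 1426, 2590, 1466, 8023, 1945 and 6033. It overlapped the start site window of an annotated antisense gene, Gm11175, and the assay cannot tell which gene such a region belongs to.
At Junb, a region at chr8:84974835-84977102, with its summit in an annotated intron 2336 bp from the start, ranked 8005, 9100, 9309, 1579, 6559, 5740, 4693 and 17316.
At Fos, a region at chr12:85477252-85479180, with its summit 909 bp beyond the gene end, ranked 16570, 28791, 31069, 10826, 25839, 14701, 9912 and 20714. In 0 h replicate 2 it was barely ahead of the promoter, at 28791 against 30511.

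**Figure D2:**
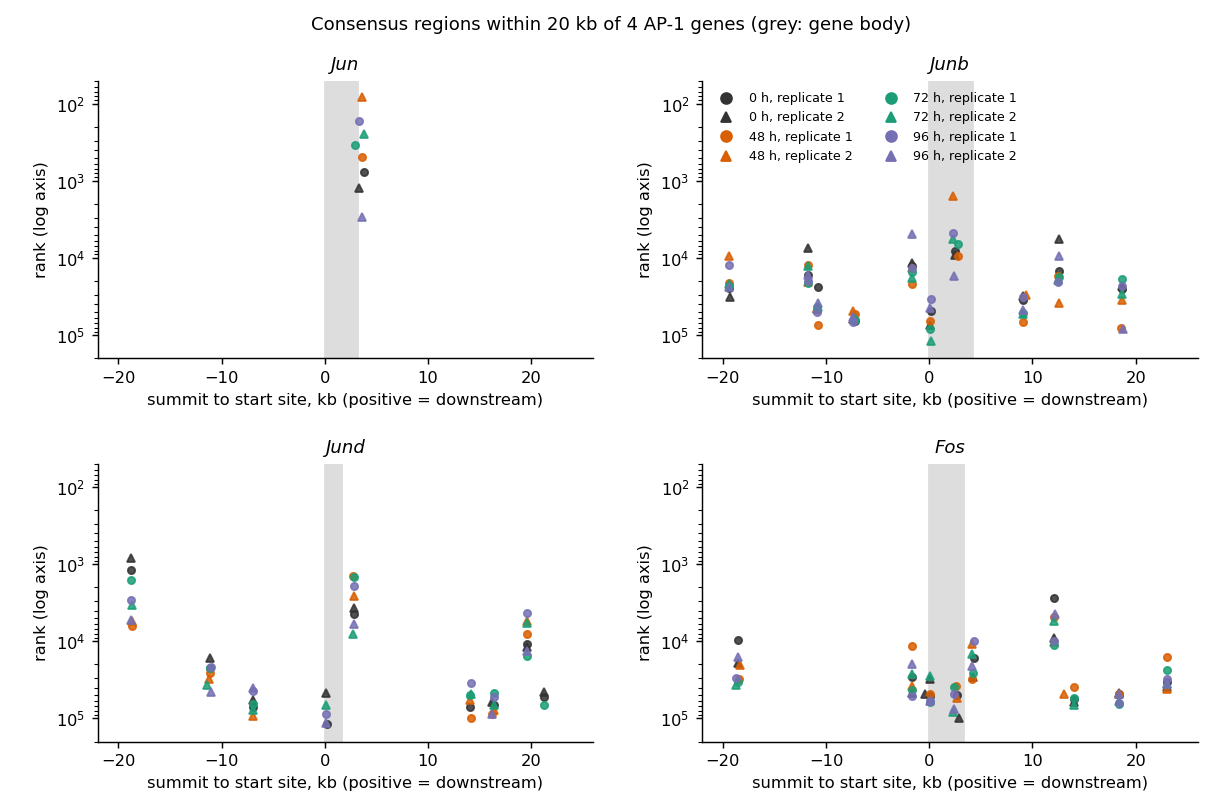
Summits of consensus regions within 20 kb of Jun, Junb, Jund and Fos, plotted as distance from the start site in kb against rank on a log axis; each point is 1 library, coloured by time after PHx, and the grey band is the gene body. The highest points of Jun (ranks 82 to 2905) lie at the end of the gene, and those of Junb (1579 to 17316) within it, while the points at distance 0 are low or missing.

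The sequences under the gene-end summits of Jun and Fos are shown because these regions ranked ahead of the promoters in every list. They were picked after the values were seen. Each is 200 bp round the strongest summit, read from GRCm38.p6 on the plus strand, with capitals for matches to the motifs above.
Jun, gene end, chr4:95048538-95048737: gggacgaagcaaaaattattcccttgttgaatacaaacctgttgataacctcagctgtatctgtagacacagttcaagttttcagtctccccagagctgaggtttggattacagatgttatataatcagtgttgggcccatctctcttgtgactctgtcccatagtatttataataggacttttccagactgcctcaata
Fos, gene end, chr12:85478082-85478281: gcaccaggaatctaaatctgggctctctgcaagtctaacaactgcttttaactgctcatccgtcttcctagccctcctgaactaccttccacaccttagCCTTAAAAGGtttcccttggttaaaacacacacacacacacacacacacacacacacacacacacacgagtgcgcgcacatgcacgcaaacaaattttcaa
The Jun window held no match. The Fos window held 1 CArG box, CCTTAAAAGG, the kind of site bound by serum response factor, which stood in 0.878% of 56061 distal windows of the same length. Windows of the same length at promoter regions of Fos (summit at −375 bp, an interval in 1 list) and Fosb (summit at −325 bp) also held 1 each. A match is a description of the letters only.

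The gene end was compared with the promoter across all genes. The gene end was the annotated end ±2 kb, outside the gene's own promoter window, and only intervals with their summit in a window counted. The gene end ranked ahead of the promoter in all 8 lists in Jun, Junb, Jund, Fos and Fosl1, 5 of 10 members. An absent promoter interval counted as behind, which decided 6 lists for Jun, 3 for Jund and 1 each for Junb and Fos. The same was true of 5.28% of all protein-coding genes (1157 of 21911), and of 6.56% of the 4132 genes under 5 kb long. Most of these genes lacked a gene-end interval in all lists, whereas all members but Fosl2 and Batf had one. Among genes with one, the gene end was ahead in 1157 of 3752, and in 271 of 518 under 5 kb. The window was chosen with these loci in view, so no test was made. The gene-end window of Fosl1 fell on the promoter of its neighbour Ccdc85b, and the windows of Jun, Jund and Fosb also lay near the start site of another gene. Where the gene-end window was free of other start sites, as in Junb and Fos, the share over all genes was 3.81%. Of such genes with a gene-end interval in all lists, the gene end was ahead in 676 of 2443. In Atf3 the gene end was ahead in 5 lists, in Fosb in 7, in Maff and Batf in 1 each, and Fosl2 had no gene-end interval.
Fold enrichment over the local background, the other measure of strength in the lists, placed the gene-end regions of Jun, Junb, Jund and Fos much lower in the lists, but not that of Fosl1. The Jun gene-end intervals had 4.2- to 5.28-fold enrichment, with −log10 p of 68.3 to 210, and ranked between 41732 and 66378 by fold. The Jund region ranked between 44174 and 93643 by fold, that of Junb between 40599 and 75797, that of Fos between 67973 and 94527, and that of Fosl1 between 15515 and 39658. By fold the gene end was still ahead of the promoter in all 8 lists in the same 5 members, against 5.24% of all genes. Among genes with a gene-end interval in all lists, that was 1148 of 3752.

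**Figure D3:**
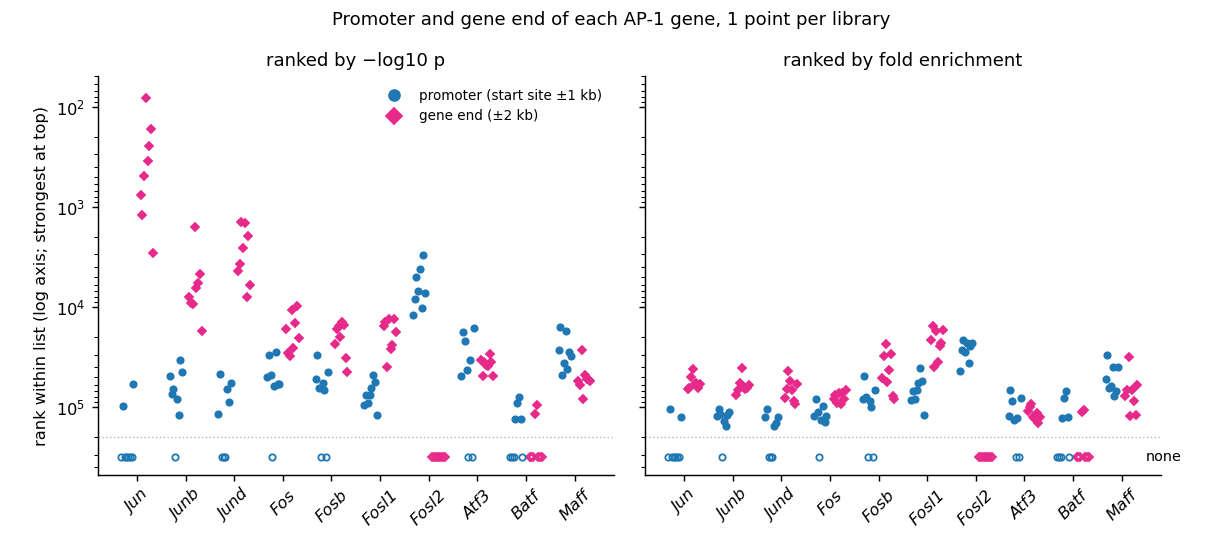
Rank of the strongest interval at the promoter (circles) and at the gene end (diamonds) of each AP-1 gene, 1 point per library, ordered by −log10 p on the left and by fold enrichment on the right; axes are logarithmic with the strongest at the top, and open symbols below the dotted line are libraries without an interval. The diamonds of Jun, Junb, Jund, Fos and Fosl1 lie above the circle of the same library in both panels, though the points of Fos overlap between libraries, and those of Jun drop from ranks of 82 to 2905 by −log10 p to 41732 to 66378 by fold enrichment.

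Across the 10 loci, 69 of the 73710 consensus regions (merged from the 50000 strongest intervals of each list) were found, of which 14 touched a member's own promoter, 15 the promoter of another gene and 40 were distal. Of the distal regions, 27 had an interval in all 8 lists. The strongest by median rank lay 18.8 kb upstream of Jund (ranks 832 to 6340), 13.6 kb downstream of the Fosb start in Rtn2 (2926 to 7201), 30.1 kb downstream of the nearer Atf3 start (1771 to 9443), 19.0 kb into Batf (1746 to 19497) and 12.1 kb downstream of the Fos start (2720 to 11201). The strongest distal regions of Fosl2, Maff and Fosl1 were weaker, at ranks 10355 to 40746, 20340 to 45014 and 32156 to 54916.
Among regions at the members' own promoters, the 200 bp window of Fosl1, in its UTR, held 1 AP-1 site. Of the distal regions, 1 of the 40 windows held an AP-1 site (2.5%, against 6.34% of all distal windows), shown here because it is the family's own binding site, in an intron of Iqcn downstream of Jund.
Jund, 16.4 kb downstream, chr8:70715226-70715425, plus strand: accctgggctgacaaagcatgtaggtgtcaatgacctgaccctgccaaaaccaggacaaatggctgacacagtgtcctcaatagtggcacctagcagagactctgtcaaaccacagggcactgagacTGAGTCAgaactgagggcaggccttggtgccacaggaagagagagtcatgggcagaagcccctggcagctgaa
The GC box stood in 8 of the 40 windows (20%), against 6.4% of all distal windows. These windows share loci and were not tested.

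The comparison of each time after PHx with 0 h asked whether the openness of these loci changed during regeneration. Shifts are log2 ratios of ranks, positive where the site was nearer the top of the list after PHx, with the moderated standard error. That error rested on 4 residual degrees of freedom of the site itself. A further 31.69 (promoters) or 43.3 (distal regions) were borrowed from all sites. The median shift over the 13200 promoters tested was −0.20, −0.24 and −0.10 for 48, 72 and 96 h and −0.17 over all PHx libraries. On another scale, the log2 odds of a rank within its list, which allows for list length, it was −0.06, 0.13, 0.16 and 0.07. Sizes on the odds scale cannot be set beside those of the rank ratios. Over distal regions the median rank shift was −0.02, 0.01 and −0.02 for 48, 72 and 96 h, and on the odds scale 0.19, 0.52 and 0.30. By limma with Benjamini-Hochberg adjustment, no member promoter passed an adjusted p of 0.05 at 48 h (0.0455% of all promoters did), 72 h (0%), 96 h (0.00758%) or over all PHx libraries (0.0227%), and only the 3 members in all lists could be tested. Maff at 48 h (unadjusted p 0.0498) was the only value of these 3 members under 0.05 before adjustment, where 12.5% of all promoters were at 48 h.
Fosl2 shifted by 0.77 ± 0.69 at 48 h (adjusted p 0.677), 0.63 ± 0.69 at 72 h (0.775) and 1.09 ± 0.69 at 96 h (0.944). Both 48 h and both 96 h libraries were ahead of both 0 h libraries, while 1 of the 72 h libraries was not. Counted within 500 bp of the start, the shift over all PHx libraries was −0.57 in place of 0.83 ± 0.56. The strong interval reached that narrower window in both 0 h libraries, 48 h replicate 2 and 72 h replicate 2, where it was called about 1.2 kb wide, but not in the other 4, where it was under 0.3 kb wide.
Maff shifted by −1.01 ± 0.50 at 48 h (adjusted p 0.398), with both libraries behind both 0 h libraries, by −0.39 ± 0.50 at 72 h and by −0.52 ± 0.50 at 96 h. Fosl1 shifted by 0.04 ± 0.38, 0.62 ± 0.38 and 0.05 ± 0.38. When absent promoters were counted as last, which let all 10 members be fitted, Fosb shifted by −1.23 ± 0.47 at 48 h (adjusted p 0.343), −0.99 ± 0.47 at 96 h (0.919) and −0.95 ± 0.38 over all PHx libraries (0.427). In that fit Fos shifted by −1.06 ± 0.48 at 48 h (adjusted p 0.413) and Jun by −0.94 ± 0.44 at 72 h (0.531). These were its member values with an unadjusted p under 0.05, as were 11%, 9.23%, 5.25% and 9.7% of all promoters for 48, 72 and 96 h and all PHx libraries.
Across the 10 members, both libraries of a time lay on 1 side of both 0 h libraries in 4 promoters at each time. At 48 h Fosl2 was ahead, against 15.4% of all promoters with an interval, and Jund, Fosb and Maff were behind, against 24.9%. At 72 h Fosl1 and Batf were ahead (15.6% of all), and Junb and Fosb behind (27.2%). At 96 h Junb and Fosl2 were ahead (13.4%), and Fos and Maff behind (17.2%). Read against the background, these counts were not results about the members.

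The largest shifts of the loci were those of a Jund distal region and of the Jun gene-end region, both at 48 h, and none passed the adjusted threshold. By limma over 39539 distal regions, 0 of 27 member regions were called at 48 h (0.0253% of all regions were), 72 h (0%), 96 h (0%) or over all PHx libraries (0%), with smallest adjusted p of 0.212, 0.565, 0.603 and 0.379. At an unadjusted p under 0.05, 0 were ahead and 2 behind for 48 h, 4 and 1 for 72 h, 3 and 1 for 96 h, and 2 and 2 over all PHx libraries. Over all distal regions, 11.7%, 7.45%, 6.42% and 9.22% were under 0.05 in the same contrasts.
The region 18.8 kb upstream of Jund (chr8:70679509-70680848, intergenic) was among the strongest of undamaged liver. It ranked 1175, 832, 6340, 5462, 1597, 3383, 2917 and 5270. All 6 PHx libraries were behind both 0 h libraries, and the shift was −2.57 ± 0.81 at 48 h (adjusted p 0.212) and −1.93 ± 0.66 over all PHx libraries (0.379). Its fold enrichment, 17.8 and 19.7 in undamaged liver, was 10.3 and 10.9 in the 48 h pair. These raw values were not brought to a common scale between lists of unknown depth, so they add nothing to the ranks.
The intronic region of Batf (chr12:85705202-85706276), 19.0 kb from the start, lay on the other side. It ranked 7881, 19497, 6795, 5428, 5855, 1746, 2273 and 7481. All 6 PHx libraries were ahead of both 0 h libraries, the nearest by a small margin, and the shift over all PHx libraries was 1.52 ± 0.64 (adjusted p 0.471).
The other distal regions in which all PHx libraries stood on 1 side were a Hook2 coding exon near Junb, which was ahead (24653 and 31618 at 0 h, 9333 to 23546 after PHx), and a region 21.2 kb downstream of Jund, which was behind (52874 and 46206 at 0 h, 67781 in 72 h replicate 1 and absent from the other PHx lists). This made 2 of 40 distal regions ahead (4.21% of all distal regions) and 2 behind (5.41%).

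**Figure D4:**
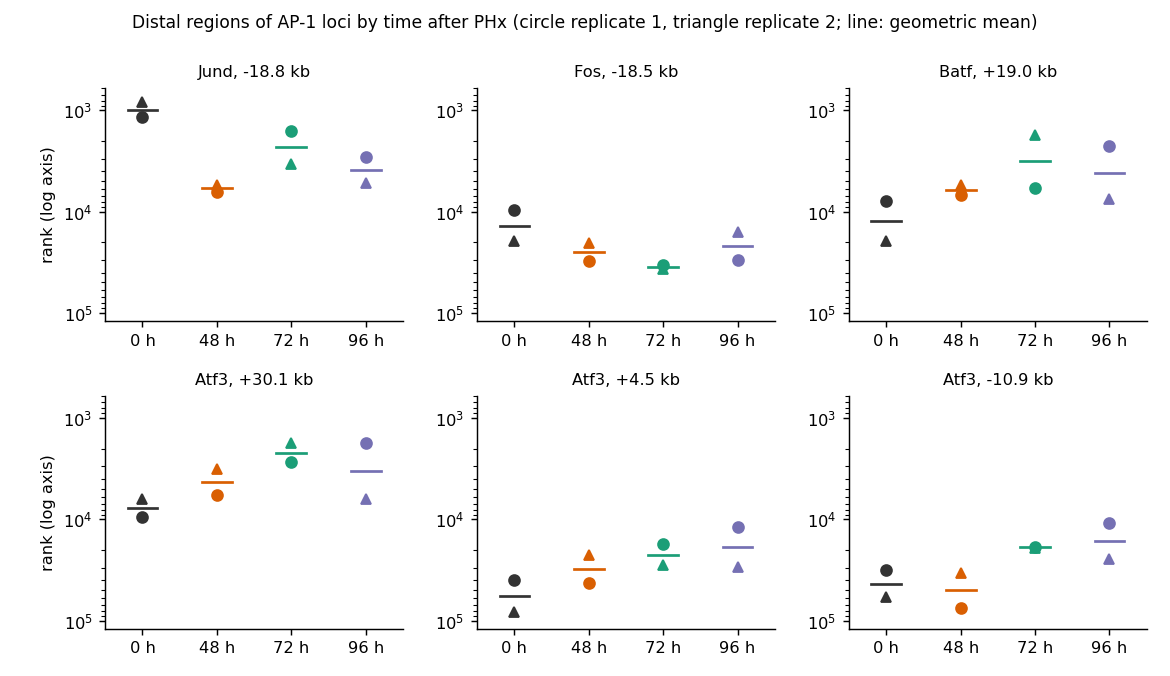
Ranks of 6 distal regions of AP-1 loci at 0, 48, 72 and 96 h (log axis, strongest at the top), with circles for replicate 1, triangles for replicate 2 and lines for the geometric mean of the pair; panel titles give the distance from the nearest start site. The Jund region lies at ranks 832 and 1175 at 0 h and between 1597 and 6340 after PHx, and the 3 Atf3 regions lie highest at 72 h or 96 h.

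At Atf3, 6 of 9 distal regions were ahead of 0 h in both 72 h libraries and none was behind, against 22.2% ahead and 18.9% behind over all distal regions. These regions share a locus and were singled out after their values were seen. The region 30.1 kb downstream (chr1:191152837-191153750) ranked 9443, 6298, 5790, 3188, 2735, 1771, 1772 and 6313. Its shift at 72 h was 1.81 ± 0.80 (adjusted p 0.628).
An intronic region 4.5 kb downstream of the nearer start (chr1:191178320-191180336) ranked 40002, 81432, 42777, 22498, 17590, 28181, 11971 and 29638. Its shift of 1.60 ± 0.53 at 96 h had the smallest unadjusted p of the members at that time, 0.00442 (adjusted p 0.603).
A further intronic region 10.9 kb upstream of that start (chr1:191193814-191194742) ranked 31796, 58308, 75228, 33713, 18560, 19036, 10808 and 24424, with a shift of 1.41 ± 0.53 at 96 h (adjusted p 0.679). At the Atf3 promoter the 72 h and 96 h libraries overlapped those of 0 h.
At Jund, 5 of 6 distal regions were behind 0 h in both 48 h libraries, against 23% of all distal regions. At Fosb 4 of 5 were behind in both 72 h libraries, against 18.9%, and the other was ahead. Both counts were singled out in the same way.
At Fos, the region 18.5 kb upstream ranked 9696 and 19411 at 0 h and 33329 and 36686 at 72 h, a shift of −1.35 ± 0.55 (adjusted p 0.597), while the gene-end region shifted by 0.16 ± 0.61. At 48 h, Junb had 2 distal regions ahead of 0 h and 2 behind, and Fosb 2 ahead and 1 behind. Those behind included the regions 18.7 kb downstream of the Junb start (−1.17 ± 0.53, adjusted p 0.381) and 10.0 kb upstream of Fosb (−1.13 ± 0.63, 0.485). When regions near start sites were fitted too, the Jun gene-end region shifted by 2.27 ± 0.99 at 48 h (adjusted p 0.35), by 1.73 ± 0.99 at 72 h and by 0.46 ± 0.99 at 96 h, with the 48 h and 72 h libraries ahead of both 0 h libraries and 96 h replicate 2 behind them. In the same fit the Jund gene-end region shifted by 1.08 ± 0.83 at 48 h (adjusted p 0.621), and the weaker Fosl2 promoter region by −1.11 ± 0.45 at 72 h (0.534). At the promoters of neighbours, the region in Rnaseh2a near Junb shifted by −1.47 ± 0.62 at 48 h (adjusted p 0.328), and one 1398 bp beyond the Fosb gene end by −1.32 ± 0.54 at 96 h (0.755).
In all, 6 of 40 distal regions were ahead at 48 h (19.1% of all distal regions) and 11 behind (23%), 12 were ahead (22.2%) and 10 behind (18.9%) at 72 h, and 9 were ahead (17.2%) and 3 behind (18.4%) at 96 h. No test was made of these shares against the background, since regions of a locus are not independent.

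Genes that act with or on AP-1 were followed at their promoters. Of the 51 tested, 0 passed the adjusted threshold at any time, where 9 of all 13200 promoters tested did. With so few called over all promoters, this was not a result about these genes.
Of 17 other bZIP genes, 15 had a promoter interval in all lists, with a median shift of −0.32 over all PHx libraries, against −0.17 over all promoters. Creb1, which binds the CRE and was singled out after its values were seen, was among the strongest promoters of every list, at ranks 18 to 162. The largest shifts were those of Atf7 (−0.70 ± 0.51), Batf3 (0.69 ± 0.34) Nfe2l1 (−0.69 ± 0.50), Maf (0.59 ± 0.51) and Bach1 (−0.58 ± 0.60), with adjusted p of 0.628, 0.465, 0.626, 0.682 and 0.746.
All 16 matched kinases and factors upstream of AP-1 genes were in all lists, with a median shift of −0.35. Map2k4, a kinase that activates the Jun N-terminal kinases, shifted by −1.17 ± 0.55 (adjusted p 0.455), Srf by −0.75 ± 0.50 (0.591), Mapk14 by −0.73 ± 0.56 (0.646), Mef2d by −0.68 ± 0.49 (0.624) and Elk3, which acts with Srf, by 0.67 ± 0.33 (0.475).
Of 19 matched other immediate early genes, 14 were in all lists (median shift −0.39) and Ier2 was in none. Over all PHx libraries Egr2, a zinc finger activator, shifted by −1.0 ± 0.49 (adjusted p 0.469), Klf10 by −0.77 ± 0.66 (0.682), Ier5 by −0.73 ± 0.43 (0.543), Rhob by −0.69 ± 0.47 (0.609) and Myc by 0.63 ± 0.48 (0.638). The smallest adjusted p of this list at 48 h, 0.262, was that of Rhob (−1.57 ± 0.57).
Of 13 known AP-1 targets, 6 were in all lists (median shift 0.31), and Timp1, Mmp13 and Mmp9 were in none. The cell cycle gene Ccnd1 ranked 28069, 50629, 9205, 17851, 10388, 29393, 22336 and 41338, with a shift of 0.99 ± 0.46 (adjusted p 0.437). Hmox1, which degrades haem, ranked 16579, 16880, 11166, 8271, 8486, 10200, 8732 and 7310, with a shift of 0.90 ± 0.49 (adjusted p 0.507). Mt2 shifted by −0.46 ± 0.36, Vegfa by 0.34 ± 0.40 and Plau by 0.28 ± 0.55.

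Markers of the cells in the preparation were followed in the same way, and their part in the values above was not tested. Of these markers 0 passed the limma threshold, where 9 of all 13200 promoters tested did. All 10 hepatocyte markers had a promoter interval in both 0 h lists against 7 to 8 after 48 h, 9 after 72 h and 9 to 10 after 96 h. Both libraries were behind 0 h in 8 of them for 48 h, 9 for 72 h and 6 for 96 h, against 24.9%, 27.2% and 17.2% of all promoters, and none was ahead. The median shift of the 7 in all lists was −0.58 over all PHx libraries. Of 7 Kupffer cell and macrophage markers 1 to 2 were found per list (Csf1r, Marco, Timd4 and Vsig4 in none), of 6 endothelial markers 2 to 4 (Stab2 and Lyve1 in none), of 5 stellate cell markers 2 to 4, of 5 cholangiocyte markers 2 to 4 (Krt19 in none), and of 5 lymphocyte markers 0. In the other direction, Reln, a stellate cell marker, shifted by 1.81 ± 0.73 (adjusted p 0.298) and Epcam, a cholangiocyte marker, by 1.59 ± 0.78 (0.395) at 48 h. Epcam overlapped 0 h, with ranks of 2827 and 4406 at 48 h against 3903 and 29081 in undamaged liver. The other tested marker of each list shifted by 0.25 (Lrat) and −0.07 (Sox9). Of the 5 stellate cell markers 2 were ahead of 0 h at 48 h and 0 behind. These were Reln (5057 and 2038 against 5347 and 23627) and Des (89442 and 70520 against 117523 and absent). Of the 7 macrophage markers 1, Cd68, was ahead. Over all promoters with an interval, 15.4% were ahead at 48 h. Of the cholangiocyte markers none was ahead of 0 h at 48 h and 1, Spp1, was behind (78312 and 48359, against absent and 89765), and Krt7 was absent from both 48 h lists. In bulk samples, fewer cells of a type and less open chromatin per cell at its genes cannot be told apart.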

How the data were processed

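Bulk ATAC-Seq peak lists of 8 hepatocyte libraries were used (0, 48, 72 and 96 h, 2 each); further libraries that the study describes were not analysed here. The authors aligned reads to mm10 with Bowtie2, removed duplicates and called MACS2 peaks per library at p 0.01 with a blacklist filter. The deposited columns give a display score (not used), fold enrichment over local background (a ratio), −log10 p and −log10 q. They hold no counts, so depth is unknown and no counting interval can be given.

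Rows with the same interval were collapsed and ranked by −log10 p. Log2 ranks of features with an interval in all lists were fitted with limma 3.58.1 in R 4.3.3 (4 group means, trend, no replicate block), adjusted over all features by Benjamini-Hochberg, with 0.05 as threshold. The fit was run on simulated data with shifts larger than any reported here, which does not show whether smaller shifts could be detected. Absent intervals were ranked last where stated. Same-numbered libraries did not pair, with correlations of deviations between −0.0862 and 0.116. Members and lists were chosen with earlier results of these data known. All members were named. Of other lists, at most 5 genes with the largest shifts were named, and of regions those not overlapping 0 h with a shift over 1 and the strongest distal region of each gene, with exceptions stated. Alternatives covered ranking by fold enrichment, percentiles, filters, windows, the consensus size, the block and single libraries. The gene-end, GC and all-region comparisons were chosen after seeing the data.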

Additional observations from a re-analysis of the deposited data

Results flagged for a closer look

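Among the members' own promoters and distal regions, in 4 cases both libraries of one time after PHx lay ahead of both 0 h libraries and both libraries of another time lay behind them. The difference between the times was not tested in any of them. Values are log2 ratios of the geometric mean ranks of those times, with an absent interval counted as last. The Junb promoter was ahead at 96 h (34380 and 44719) and behind at 72 h (83383 and 120593), a difference of 1.35. The region 13.8 kb upstream of Fosl1 was ahead at 96 h (35515 and 32156) and behind at 72 h (54916 and 50927), a difference of 0.65. The region 17.2 kb upstream of Fosb was ahead at 48 h (20223 and 18021) and behind at 72 h (28679 and 26630), a difference of 0.53. The region 7.0 kb upstream of Jund was ahead at 96 h (44134 and 40535) and behind at 48 h (absent and 93395), a difference of 1.31. A region at another gene's promoter, 1398 bp beyond the Fosb gene end, was likewise ahead at 72 h (14319 and 15077) and behind at 96 h (32548 and 76117) of 0 h (23819 and 16717). Such opposite sides were seen in 4.37% of all promoters and 1 of 10 members, and in 6.11% of all distal regions and 3 of 40 in member loci.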

How the results depend on the processing

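No member promoter or region was called under any of 120 alternative values, with smallest adjusted p of 0.292 for promoters and 0.151 for regions. Of 222 alternative values in all, 193 stayed within the limits set for no change, most of them counts within 1.5 times of the reported one, 28 moved further and 1 reversed. The number of promoters called at any time was 9; it was 0 by fold enrichment, 4 on percentiles, 16 without the filter and 4 with the replicate block. Leaving out single libraries gave 1 to 137, namely 2 and 1 without 0 h replicates 1 and 2, 3 and 5 without those of 48 h, 4 without 72 h replicate 2, and 54 and 137 without those of 96 h. The number of distal regions called was 10; it was 0 by fold enrichment, 2 on percentiles, 32 without the filter, 1 at q under 0.05, 101 in a consensus of 25000 intervals and 10 with the replicate block. Leaving out libraries gave 1 to 11, namely 1 and 2 without 0 h replicates 1 and 2 and 1 and 5 without those of 48 h. The number of member promoters that did not overlap 0 h was 4 at each time; by fold enrichment it was 2 at 48 h, 6 at 72 h and 3 at 96 h. Without single libraries the counts were 4 to 8 at 48 h, 5 to 8 at 72 h and 5 to 8 at 96 h, where 1 library against a pair separates more easily by construction. Fosl2 over all PHx libraries turned from 0.83 to −0.57 with a window of 500 bp, which its strongest interval reached in 4 of the 8 lists. Its shift was 0.42 by fold enrichment, and 0.55 to 1.10 when single libraries were left out. Fosl1 had no value at q under 0.05. The cause of the other differences was not tested. Depth is unknown, so absent intervals bound nothing.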
